A study of Mus musculus with 2 samples.

Results

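Genes induced by type I interferon were followed through immune cells of metastatic mouse lung. The list held 40 genes, matched by symbol and joined between the libraries by Ensembl identifier. Of these, 39 were in both gene lists and had at least 20 UMIs over the kept cells, out of 13023 such genes among 29413 shared ones. A UMI (unique molecular identifier) stands for 1 captured RNA molecule at the 3′ end, whatever the length of the transcript. The remaining member, Mx1, was in the distal gene list alone, and its values are given at the end. Labelling-4T1 cells, from a breast cancer line of mice that colonises lungs, had been injected intravenously into female Balb/c mice, and the lungs were taken 7 days later. FACS-sorted immune cells gave 1 droplet 3′ library titled niche and 1 titled distal lung. Both came from lungs with metastases, so an uninjected lung is not part of the comparison, and the sources used here give no sort marker, age or number of animals.

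Type I interferons are secreted by cells that sense foreign or misplaced nucleic acid. They bind the receptor Ifnar1/Ifnar2 on the same or neighbouring cells, and the kinases Jak1 and Tyk2 then pass the signal on by phosphorylation. Stat2 and Irf9 are part of the complex ISGF3 that forms, which binds interferon-stimulated response elements and turns on a broad antiviral program, while interferon gamma acts through a different receptor on a partly shared set of genes.

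The response element can be seen in the genome next to the members. Promoter sequences from RefSeq (GRCm38.p6), running from 250 bases before to 50 after the annotated start, were found for 32 of the 40 members. The core, GAAA, any 2 bases and GAAA again, was searched on both strands (TTTC, any 2 bases and TTTC on the other) with overlapping matches counted, and was present in 18 of these 32 (56.25%). Among all 27025 genes with a promoter in the same table, 1079 (3.99%) held it. The windows of 100 bases shown here belong to Isg15 (chr4:156200836-156200935, minus strand), Ifit1 (chr19:34640749-34640848, plus), Ifit3 (chr19:34583345-34583444, plus), Ifit3b (chr19:34607741-34607840, plus) and Rsad2 (chr12:26456518-26456617, minus). They were chosen, after the values were seen, among members that hold the motif and are described further on. The motif does not set apart the members that differ between libraries. Irf7, Ifi209, Ifit2, Isg20, Cmpk2 and Samd9l, which also differ between libraries further on, held 0 matches. Ddx58 and Trim30d, which differ as well, held 1 each. Capitals mark the matches to the motif on either strand.
Isg15: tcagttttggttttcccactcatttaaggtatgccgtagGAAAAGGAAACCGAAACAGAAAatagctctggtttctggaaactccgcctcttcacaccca
Ifit1: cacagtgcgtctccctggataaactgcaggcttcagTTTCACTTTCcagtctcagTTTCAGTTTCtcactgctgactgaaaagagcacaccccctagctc
Ifit3: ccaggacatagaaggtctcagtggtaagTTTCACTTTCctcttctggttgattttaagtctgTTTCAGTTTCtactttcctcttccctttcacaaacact
Ifit3b: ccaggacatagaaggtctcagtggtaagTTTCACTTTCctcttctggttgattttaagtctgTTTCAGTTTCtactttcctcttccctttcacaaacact
Rsad2: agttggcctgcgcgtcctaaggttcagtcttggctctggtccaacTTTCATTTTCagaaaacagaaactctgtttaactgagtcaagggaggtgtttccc
Isg15 held 3 overlapping matches, the first 78 bases before the start. Ifit1 held 2, the first 104 bases before the start, and Rsad2 held 1, 120 bases before it. The windows of Ifit3 and Ifit3b were the same letter for letter, with 2 matches each, 156 and 188 bases before the respective start. A match is a description of the letters and not a measured binding site. On the chromosomes, 7 members lie on chromosome 11, 5 each on chromosomes 5 and 7, and 4 on chromosome 19, where Ifit2, Ifit3, Ifit3b and Ifit1 follow each other between 34550694 and 34650009.

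The distal library held 3945 barcodes and 22323465 UMIs, and the niche library 3242 barcodes and 38036915 UMIs. After filtering, 3535 distal and 3081 niche cells were kept, with medians of 5786 and 11197 UMIs, and 4 barcodes occurred in both libraries. Cells were grouped by marker genes into classes, all named "-like" because the names rest on markers and on clusters made without the interferon gene lists. The markers include Ms4a4c for classical monocytes and Ifi205 for conventional dendritic cells, which are also on those lists. The libraries differed in make-up: the monocyte/macrophage-like class held 298 distal cells (8.43%) and 1726 niche cells (56.0%), while alveolar macrophage-like cells numbered 1109 and 9. Clusters that carried a second lineage's markers, or more markers of another type than of their own among their 10 top genes, were kept apart as mixed. These were 9.59% of distal and 10.1% of niche cells. An unnamed cluster of few UMIs (0.255% and 11.4%) was kept apart too. Both libraries also held endothelial-like cells (82 and 24), although the label reads immune cells. With 1 library per group there is no replicate, so no p-value is given. Intervals in brackets are exact at 95% and cover counting error only, not the spread between animals or between cells.

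In the distal library the summed level of the 39 members was highest in classical monocyte-like cells, at 13245 CPM (UMIs scaled to 1000000 of the class, interval 12914 to 13583; 96 cells). Neutrophil-like cells followed at 9205 CPM (8919 to 9499; 355 cells), then endothelial-like cells at 8795 CPM (8407 to 9196; 82 cells). The order of these neighbours is not settled by the counts, since the intervals of neutrophil-like and endothelial-like cells overlap, as do those of endothelial-like cells and of plasmacytoid dendritic-like cells at 8545 CPM (8173 to 8930; 34 cells). Monocyte/macrophage-like cells stood at 8191 CPM and non-classical monocyte-like cells at 8022 CPM, with overlapping intervals (8077 to 8307, and 7799 to 8249). Levels were lower in migratory dendritic-like cells (5548 CPM), interstitial macrophage-like cells (4574 CPM) and alveolar macrophage-like cells (2458 CPM). At the bottom stood B cell-like cells at 1321 CPM (1230 to 1418; 201 cells). C1qa, a complement gene of macrophages that B and T cells lack, gauges free RNA from macrophages only. Distal B cell-like cells had 3.41 CPM of it and distal T cell-like cells 5.11 CPM. S100a8, a neutrophil marker, stood at 247 CPM in distal B cell-like and 6.25 CPM in distal T cell-like cells. It reached 1105 CPM in distal plasmacytoid dendritic-like and 745 CPM in distal migratory dendritic-like cells. The part of free RNA in these levels was not tested.

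**Figure D1:**
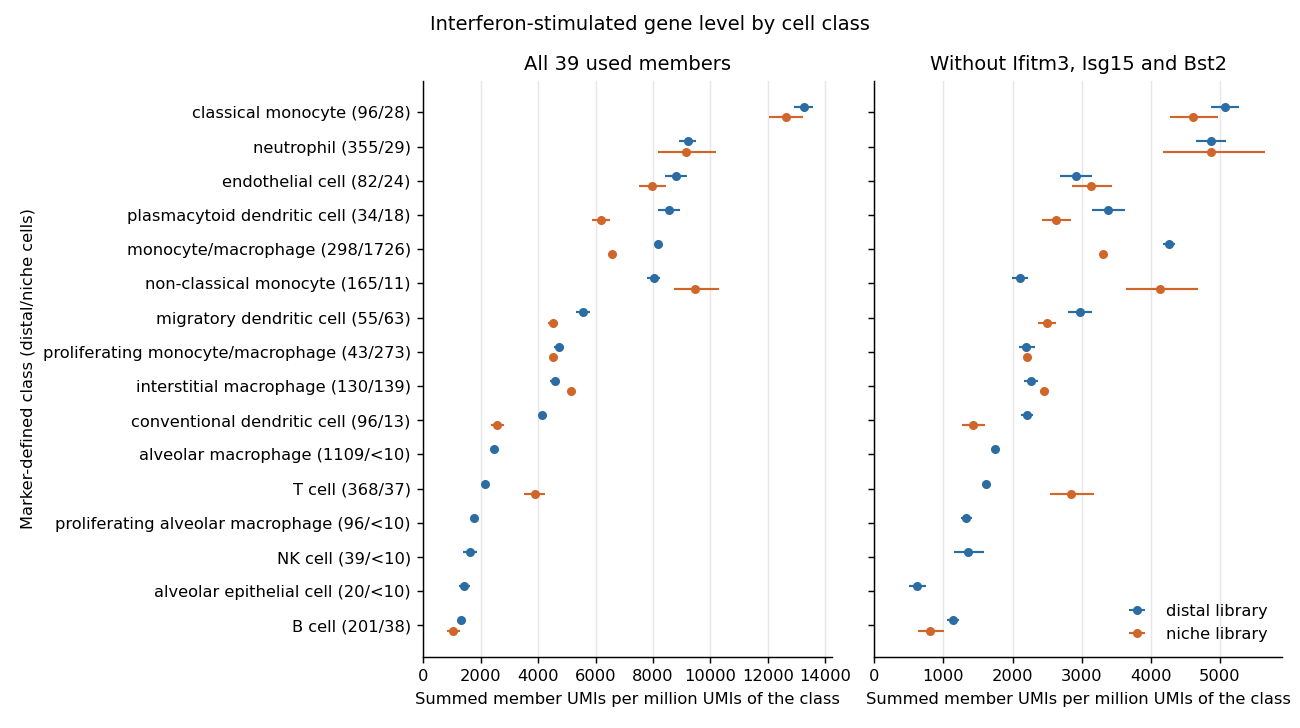
Summed level of the interferon-stimulated genes (x axis, CPM) in each marker-defined class with at least 10 cells (y axis, number of distal and niche cells in brackets), for all 39 used members (left) and without Ifitm3, Isg15 and Bst2 (right). Points are single libraries and bars exact 95% counting intervals; classical monocyte-like cells are highest on the left at 13245 CPM in the distal library, and on the right they stand beside neutrophil-like cells, at 5070 and 4866 CPM.

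A few members made up much of these sums. Ifitm3, which blocks the entry of viruses at the endosome, held 97960 UMIs over all kept cells, Isg15, the ubiquitin-like protein that is attached to target proteins, 33231, and Bst2, the tetherin that holds budding virus at the membrane, 26132. Without these 3, distal classical monocyte-like cells (5070 CPM, 4866 to 5280) and neutrophil-like cells (4866 CPM, 4658 to 5080) were no longer apart beyond counting error. Monocyte/macrophage-like cells followed at 4263 CPM (4181 to 4347). Non-classical monocyte-like cells stood at 2110 CPM without them, since Ifitm3 alone stood at 5658 CPM there.

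The members did not share one pattern over the classes. In the distal library, 14 of the 39 had their highest level in neutrophil-like cells, 9 in classical monocyte-like cells, 7 in monocyte/macrophage-like cells, 4 in endothelial-like cells, 3 in plasmacytoid dendritic-like cells and 2 in migratory dendritic-like cells. The neutrophil-like cells had a median of 1062 UMIs, so each of their values rests on few molecules per cell. Isg15 stood at 2670 CPM in distal and 2937 CPM in niche neutrophil-like cells, against 896 and 753 CPM in monocyte/macrophage-like cells and 63.1 CPM in B cell-like cells of the distal library. Slfn1, a schlafen gene, reached 854 and 1119 CPM in neutrophil-like cells, and 94.6 and 80.6 CPM in monocyte/macrophage-like cells. Rsad2, the radical SAM enzyme viperin, was at 448 and 503 CPM in neutrophil-like cells and at 212 and 112 CPM in monocyte/macrophage-like cells. All 3 were thus higher in neutrophil-like cells than in the macrophage class in both libraries, the niche values resting on 29 neutrophil-like cells.

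Other members marked other cells. Ifitm3 stood at 7196 CPM in distal and 6474 CPM in niche classical monocyte-like cells and at 4762 and 4075 CPM in endothelial-like cells, and its lowest distal level was 17.6 CPM in NK cell-like cells. Bst2 was highest in plasmacytoid dendritic-like cells, at 3246 and 1922 CPM, and lowest in neutrophil-like cells, at 30.7 CPM in the distal library. Plasmacytoid dendritic cells are the classic professional source of type I interferon, and Bst2 is one of their surface markers in mice. Ifi204, a DNA-binding protein of the PYHIN family, reached 358 CPM in distal classical monocyte-like cells against 7.08 CPM in neutrophil-like cells. Ifi44, an interferon-induced protein of unsettled function, was at 397 CPM in distal classical monocyte-like cells and 393 CPM in plasmacytoid dendritic-like cells, but at 9.43 CPM in neutrophil-like cells and 3.98 CPM in T cell-like cells. Slfn5, another schlafen gene, was at 397 CPM both in classical monocyte-like and in endothelial-like cells. So neutrophil-like cells, high for Isg15, Rsad2 and Slfn1, were near the bottom for Bst2, Ifi204 and Ifi44. C1qa stood at 333 CPM in distal and 1982 CPM in niche endothelial-like cells. In plasmacytoid dendritic-like cells it stood at 229 and 1509 CPM, the niche value on 18 cells. The part of macrophage RNA in the levels of these classes was not tested.

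**Figure D2:**
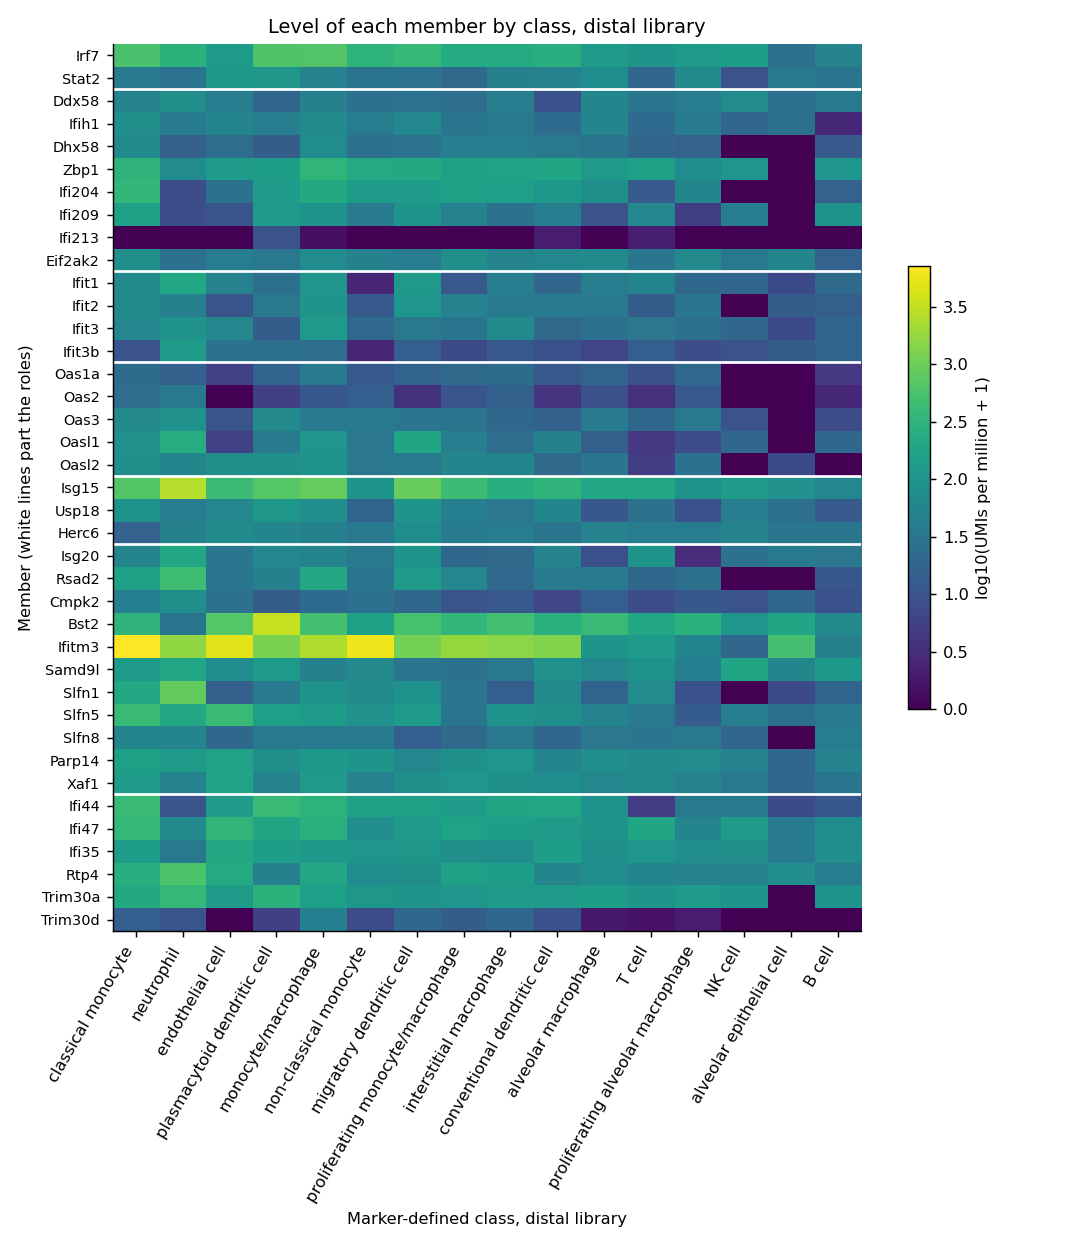
Level of each used member (y axis, grouped by role) in each marker-defined class of the distal library (x axis, ordered by the summed level). Colour is log10 of CPM plus 1, from single-library sums; Isg15 and Slfn1 are brightest in the neutrophil column, at 2670 and 854 CPM, and Bst2 in the plasmacytoid dendritic column, at 3246 CPM.

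Type I interferon transcripts themselves were almost absent. Of 18 type I interferon genes in both lists, 16 had 0 UMIs in all kept cells, which allows a share of cells with a UMI of up to 0.0849% in the distal and 0.0974% in the niche library for each gene. Ifnb1, the interferon beta gene, had 4 UMIs in 3 niche cells, and Ifnab had 1 UMI in 1 distal cell. Ifng, the interferon gamma gene, had 287 UMIs in 98 distal cells and 41 UMIs in 15 niche cells.

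Niche and distal cells were compared in the 3 classes with at least 50 cells in each library. In monocyte/macrophage-like cells most members were lower in the niche library, by modest amounts. The summed level was 8191 CPM in the distal and 6566 CPM in the niche library. Of the 39 used members, 38 had at least 20 UMIs in the class; the other was Ifi213, with 8. Of these 38, 37 had a log2 ratio of niche over distal below 0, with a median of -0.42, against -0.03 over all 10890 genes measured in the class. A gene was called when it differed by at least 1.5-fold, and 13 members were lower past that fold, beside 10.3% of all genes. Not a single member was higher past it, beside 8.58% of all genes. The counting interval lay below 0 for 32 members (11.9% of all genes) and above 0 for 1 (11% of all genes).

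The difference was uneven over the roles. All 4 IFIT genes, whose products bind foreign RNA, were lower past 1.5-fold. Ifit1 stood at 102 CPM in the distal and 66.7 CPM in the niche library, a log2 ratio of -0.62 (-0.81 to -0.41). Ifit2 was at 97.9 and 64.5 CPM (-0.61, -0.80 to -0.40). Ifit3 was at 117 and 66.4 CPM (-0.82), its interval ending at -0.62. All 3 were thus at similar niche levels. Ifit3b, a near copy of Ifit3, was at 23.0 and 9.73 CPM, with a ratio of -1.25 (-1.68 to -0.79), the lowest of all members. Because the last 600 bases of Ifit3 and Ifit3b are 95.3% identical, the split of UMIs between them is uncertain. Each of these genes was below 0 also in the 2 larger of the 3 clusters of the class. In the distal library, the 5 highest of 298 cells held 30.7% of the Ifit1 and 28.6% of the Ifit2 UMIs. For Ifit3 and Ifit3b they held 27.2% and 38.2%. The distal levels of these genes thus rested in part on few cells.

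Among the nucleic acid sensors, Ddx58, which codes for RIG-I, the sensor of uncapped double-stranded RNA, differed most, with 47.3 CPM in the distal and 22.7 CPM in the niche library (log2 ratio -1.06, -1.35 to -0.75). Ifih1, coding for MDA5, the sensor of long double-stranded RNA, was at 67.8 and 50.6 CPM (-0.43, -0.66 to -0.18). Dhx58, coding for their regulator LGP2, was at 74.5 and 66.3 CPM (-0.17, -0.39 to 0.07), an interval that holds 0. The 3 RIG-I-like receptors therefore spanned a wide range within one family. Zbp1, the sensor of Z-form nucleic acid, was at 335 and 326 CPM (-0.04, -0.14 to 0.07). Eif2ak2, the kinase PKR that halts translation, was at 71.2 and 54.0 CPM (-0.40, -0.63 to -0.16). Ifi204 was at 220 and 193 CPM (-0.19, -0.32 to -0.05). Its neighbour in the PYHIN family, Ifi209, was lower past 1.5-fold, at 95.4 and 61.9 CPM (-0.63, -0.83 to -0.41), though 99% identical to Ifi214 over its last 600 bases.

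Of the transcription factors, Irf7, the factor that amplifies interferon production, stood at 637 CPM in the distal and 421 CPM in the niche library, a log2 ratio of -0.60 (-0.68 to -0.52). Stat2, the ISGF3 subunit, was at 50.6 and 45.7 CPM (-0.15, -0.42 to 0.14), so its interval holds 0.

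The oligoadenylate synthetase family, whose products activate the RNA-cutting enzyme RNase L or act as its catalytically silent relatives, was below 0 in all 5 measured members. Oas1a was at 38.5 CPM in the distal and 28.7 CPM in the niche library (log2 ratio -0.43), and it is 98.3% identical to Oas1g over its last 600 bases. Oas2 was at 10.5 and 5.97 CPM (-0.83, -1.44 to -0.13), the one member of the family past 1.5-fold, on 25 distal UMIs. Oas3 was at 37.7 and 26.4 CPM (-0.52), and 110 of its bases are 96.4% identical to Gm20559. The synthetase-like pair, of which Oasl1 lacks the enzymatic activity, differed by less than 1.5-fold. Oasl1 was at 103 and 82.4 CPM (-0.32), and Oasl2 at 90.4 and 66.6 CPM (-0.44).

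No gene of the ubiquitin-like modifier system was past 1.5-fold. Isg15, the modifier, was at 896 CPM in the distal and 753 CPM in the niche library (log2 ratio -0.25, -0.32 to -0.19). Usp18, the protease that removes it and restrains receptor signalling, was at 76.2 and 51.8 CPM (-0.56, -0.78 to -0.32). Herc6, its ligase in mice, was at 47.7 and 43.5 CPM (-0.14, -0.42 to 0.16). Over 438 bases Isg15 is 95.2% identical to AC151275.1.

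Among the other antiviral effectors, 4 of 11 were lower past 1.5-fold. Rsad2 stood at 212 CPM in the distal and 112 CPM in the niche library, a log2 ratio of -0.92 (-1.06 to -0.78). Its genomic neighbour Cmpk2, a nucleotide kinase, was at 20.9 and 11.7 CPM (-0.86, -1.29 to -0.38). Isg20, an exonuclease of single-stranded RNA, was at 54.4 and 24.6 CPM (-1.15, -1.42 to -0.86), and Samd9l, a restriction factor, at 49.0 and 32.7 CPM (-0.59, -0.87 to -0.29). These 4 differed most among the effectors. Ifitm3 was at 2507 and 2027 CPM (-0.31, -0.35 to -0.27) and Bst2 at 524 and 478 CPM (-0.13, -0.22 to -0.05). The schlafen genes were lower by differing amounts: Slfn5 was at 129 and 86.7 CPM (-0.57), Slfn8 at 36.0 and 27.0 CPM (-0.42) and Slfn1 at 94.6 and 80.6 CPM (-0.23). Parp14, an ADP-ribosyltransferase, was at 111 and 89.2 CPM (-0.32), and Xaf1, which promotes apoptosis, at 115 and 96.0 CPM (-0.26).

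In the remaining group, Ifi47, an immunity-related GTPase that is also strongly induced by interferon gamma, was the one member above 0, at 276 CPM in the distal and 300 CPM in the niche library (0.12, 0.01 to 0.24). Ifi44 was at 313 and 265 CPM (-0.24), and Ifi35, a partner of Nmi, at 113 and 109 CPM (-0.04, -0.22 to 0.15). Trim30d was lower past 1.5-fold, at 45.2 and 29.0 CPM (-0.65, -0.94 to -0.33). Its relative Trim30a, a regulator of TLR signalling, was at 149 and 127 CPM (-0.22). Rtp4, which restrains the interferon response to viruses, was at 203 and 162 CPM (-0.32); it shares exonic bases with Gm45338, a gene of one list alone, so its ratio is uncertain.

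**Figure D3:**
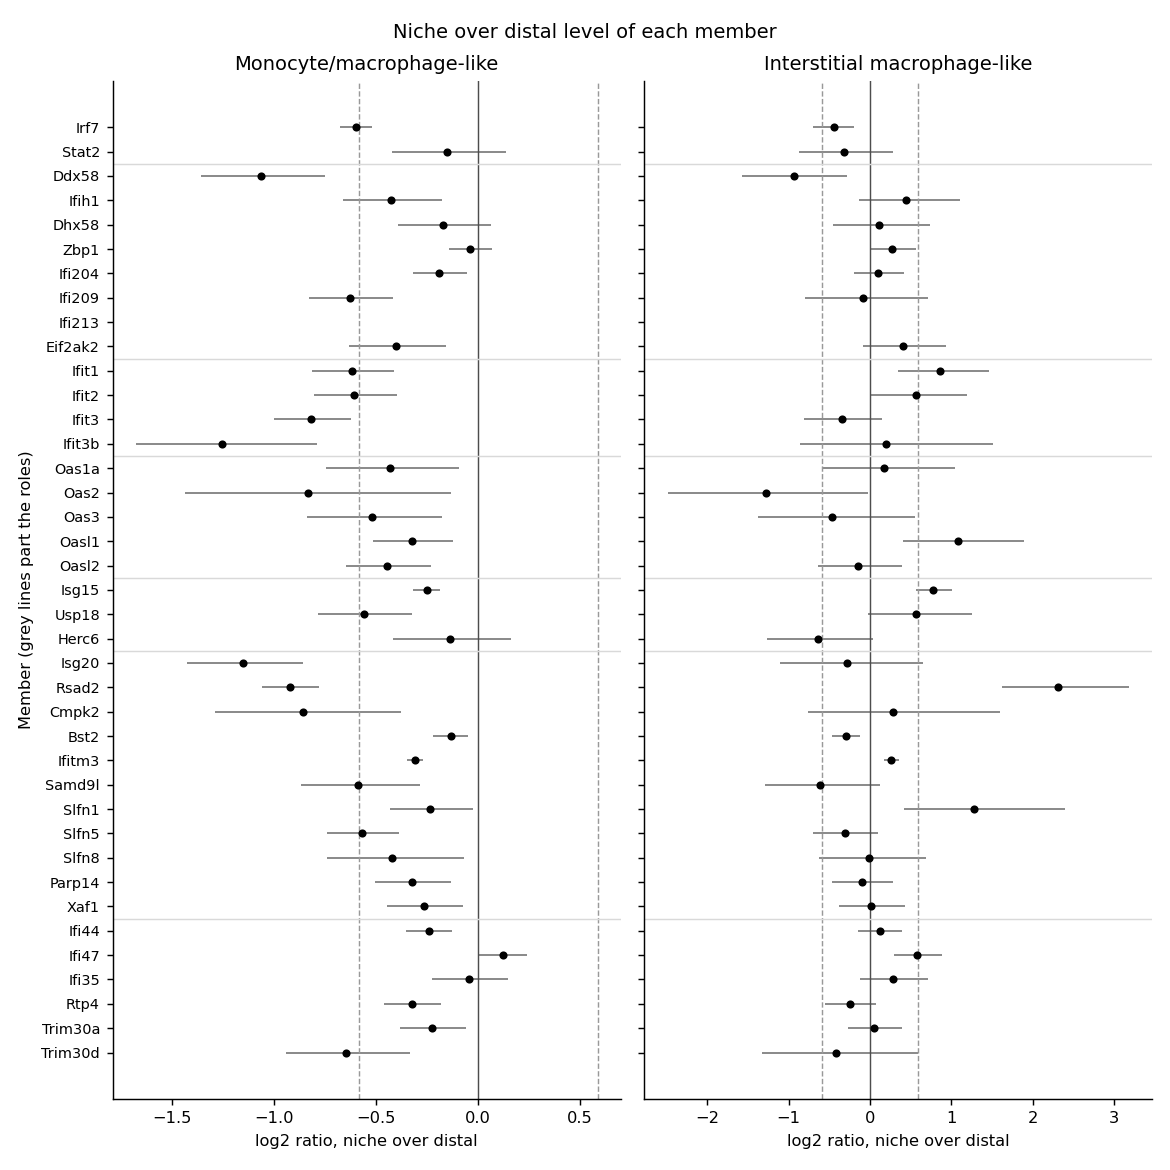
Log2 ratio of niche over distal CPM (x axis) of each member with at least 20 UMIs in the class (y axis, grouped by role), in monocyte/macrophage-like cells (left) and interstitial macrophage-like cells (right). Bars are exact 95% counting intervals and dashed lines mark 1.5-fold; 37 of 38 points lie below 0 on the left, and 17 of 38 on the right.

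How cells were clustered bore on these values. In the clustering used, which left the interferon genes out, the class held 3 clusters. In the largest (177 distal and 1206 niche cells), 38 of 38 members were below 0, with a median log2 ratio of -0.56. Past 1.5-fold, 17 were lower and 0 higher. In the next (96 and 412 cells), 32 of 38 were below 0 (median -0.39), with 11 lower and 1 higher past 1.5-fold. In the smallest (25 and 108 cells), 22 of 37 were below 0 (median -0.11), with 5 lower and 6 higher past 1.5-fold. Shares of all genes by cluster are not given. Rsad2 was among those above 0 in the smallest cluster, at 94.0 CPM in the distal and 181 CPM in the niche library (0.91, 0.25 to 1.72).

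An alternative clustering that kept the interferon genes set a cluster of high member levels apart within the class. It held 34 of 421 distal cells (8.08%) and 165 of 1871 niche cells (8.82%), and its summed member level was 25475 CPM in the distal and 18575 CPM in the niche library, with Rsad2 at 2063 and 1213 CPM. Outside it, Rsad2 no longer differed in the same direction: it was at 30.1 and 33.1 CPM in the largest cluster and at 10.7 and 26.9 CPM in another. With that cluster left out, 30 of 38 members were below 0, the median log2 ratio was -0.25 and 8 members were lower past 1.5-fold. The share of all genes past 1.5-fold in these remaining cells is not given. Isg15 (0.12), Rsad2 (0.07), Oasl1 (0.21) and Ifi204 (0.11) were then above 0. Ddx58 stayed lower past 1.5-fold at -1.11, while Irf7, at -0.36, no longer passed 1.5-fold.

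Other measures differed between the libraries as well. Interstitial macrophage markers (12 of 12 detected) summed to 18589 CPM in the distal and 15922 CPM in the niche class. Classical monocyte markers (10 of 10) summed to 2095 and 1414 CPM. Ms4a4c, also on the list of other type I interferon-induced genes, held 739 and 592 CPM of that sum. Proliferation genes summed to 110 and 197 CPM. Markers of neutrophils (127 and 71.0 CPM), B cells (135 and 74.2 CPM) and T cells (13.8 and 12.8 CPM) were low in both. Median UMIs per cell were 7424.5 and 11724. The part of these measures in the lower niche levels was not tested. The software version and gene annotation also differed between the libraries and cannot be told apart from the sort.

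The rest of the pathway was mixed in direction. Of 12 measured ligand and sensing genes, 1 was lower and 0 higher past 1.5-fold (median log2 ratio -0.08). Of all genes in the class, 10.3% were lower and 8.58% higher, so neither count stands far from the background. The lower gene was Tlr7, the endosomal sensor of single-stranded RNA. It stood at 23.4 CPM in the distal and 12.9 CPM in the niche library (-0.88, -1.28 to -0.43). The kinases that act downstream of the sensors were near 0, with Tbk1 at 36.4 and 34.4 CPM (-0.09) and Ikbke at 27.6 and 28.3 CPM (0.03). So were the factors they activate, Irf3 at 28.0 and 25.8 CPM (-0.13) and Irf5 at 182 and 172 CPM (-0.08).

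Of 14 measured receptor and signalling genes, 1 was lower and 0 higher past 1.5-fold (median -0.15). Beside the same shares of all genes (10.3% and 8.58%), neither count stands far from the background. Ifngr1, the ligand-binding chain of the interferon gamma receptor, was at 178 CPM in the distal and 102 CPM in the niche library (-0.81, -0.96 to -0.65). Its partner Ifngr2 was at 170 and 147 CPM (-0.21). The type I receptor chain Ifnar1 was at 98.4 and 83.1 CPM (-0.25, -0.44 to -0.04). Ifnar2 (195 and 275 CPM, 0.49) and Il10rb (115 and 90.1 CPM, -0.36) share exonic bases with a gene of one list alone, so their ratios are uncertain. Among the kinases, Jak1 was at 122 and 108 CPM (-0.17), Jak2 at 29.3 and 27.0 CPM (-0.13) and Tyk2 at 23.0 and 17.7 CPM (-0.39), each with an interval that holds 0. Stat3 (80.0 and 81.6 CPM, 0.03), Irf1 (188 and 209 CPM, 0.15), Irf2 (149 and 147 CPM, -0.02), Irf8 (379 and 380 CPM, 0.01) and Irf9 (51.5 and 44.4 CPM, -0.22) differed little. The interval of Irf9 holds 0, as does that of Stat2.

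Of 10 feedback regulators, none passed 1.5-fold in either direction (median -0.07). Among all genes in the class, 10.3% were lower and 8.58% higher past that fold. Of 52 measured other genes induced by type I interferon, 41 were below 0, 10 were lower and 1 higher past 1.5-fold, with a median of -0.32. Those lower with at least 100 UMIs were Mndal (296 CPM in the distal and 184 CPM in the niche library, -0.69), Ifitm1 (140 and 86.8 CPM, -0.69), Pml (23.0 and 13.4 CPM, -0.80), Helz2 (19.3 and 10.8 CPM, -0.85), Ifi205 (20.9 and 13.2 CPM, -0.67), Ifitm6 (16.7 and 4.50 CPM, -1.91) and Slfn4 (13.4 and 4.64 CPM, -1.55). The one higher was Slfn3, with 28 niche and 0 distal UMIs, named after its values were seen.

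Genes induced mainly by interferon gamma lay mostly on the other side. Of 25 measured, 20 were above 0, 8 were higher and 0 lower past 1.5-fold, with a median of 0.28. Among all genes in the class, 8.58% were higher and 10.3% lower past that fold. Cxcl9, the chemokine that draws CXCR3-bearing T cells, stood at 2877 CPM in the distal and 5342 CPM in the niche library (0.89, 0.86 to 0.93). Ciita, the master regulator of MHC class II, was at 52.7 and 121 CPM (1.19), Iigp1, a GTPase against intracellular parasites, at 231 and 442 CPM (0.93), and Serpina3g, a protease inhibitor, at 321 and 657 CPM (1.03). Tgtp2 was at 11.3 and 17.7 CPM (0.62), Tgtp1 at 2.93 and 5.69 CPM (0.86) and Nos2, the inducible nitric oxide synthase, at 1.67 and 5.28 CPM (1.49), with 4 distal UMIs for Nos2. Gbp6 (4.60 and 51.6 CPM) overlaps a gene of one list alone and is uncertain. The summed level of the list was lower in the niche library, at 59663 CPM in the distal and 55071 CPM in the niche class. The genes of the list with the most UMIs went the other way, by less than 1.5-fold, and are named after their values were seen. Cd74, the chaperone of MHC class II, was at 24895 CPM in the distal and 21109 CPM in the niche library (-0.24), and the class II chain genes H2-Aa (-0.32), H2-Ab1 (-0.17) and H2-Eb1 (-0.26) were below 0 too, although Ciita was above it. Hence, counted by gene, in this class most type I members lay below 0 while most interferon gamma genes lay above it. The 2 lists were compared in the same cells, and both were chosen with earlier results of these data known. The difference between them was not tested.

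Interstitial macrophage-like cells, the Folr2 and Pf4 positive class (130 distal and 139 niche cells), did not show the lower niche levels. Their summed member level was 4574 CPM in the distal and 5161 CPM in the niche library. Of 38 measured members, 17 were below and 21 above 0, with a median log2 ratio of 0.08 beside 0.09 over all genes of the class. Past 1.5-fold, 4 members were lower (12.8% of all genes) and 5 higher (18.9% of all genes), so with summed UMIs neither count stands far from the background. The weighting of cells changed this. Thinned to 2000 UMIs, 4 of 26 measured members were below 0 and 9 were higher past 1.5-fold. As a mean over cells, 8 of 38 were below 0 and 15 higher past 1.5-fold. Shares of all genes under these 2 settings are not given. Interstitial macrophage markers themselves summed to 37101 and 24830 CPM here and proliferation genes to 232 and 556 CPM, and median UMIs per cell were 5662 and 14313. The counting interval lay below 0 for 4 members (9.67% of all genes) and above 0 for 8 (17.1% of all genes). The part of the marker levels and depth in the members' values was not tested.

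The 5 members that were higher past 1.5-fold in niche interstitial macrophage-like cells were all below 0 in the monocyte/macrophage-like class. Rsad2 stood at 19.5 CPM in the distal and 99.8 CPM in the niche library (log2 ratio 2.31, 1.62 to 3.19), but 154 of its 230 niche UMIs came from 5 cells. Isg15 was at 261 and 449 CPM (0.78), its interval starting at 0.57. Ifit1 was at 40.2 and 74.2 CPM (0.87, 0.34 to 1.47), with 96 of 171 niche UMIs in 5 cells. In the distal library 5 cells held 11 of 16 Rsad2 and 22 of 33 Ifit1 UMIs, so that few cells carried most of the molecules in both. Oasl1 was at 23.2 and 49.9 CPM (1.08, 0.40 to 1.89) and Slfn1 at 13.4 and 33.8 CPM (1.28, 0.42 to 2.40). With the interferon genes kept in the clustering, the class shrank to 41 distal and 48 niche cells, and Rsad2 (-0.45) and Ifit1 (-0.56) then lay below 0.

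The 4 members lower past 1.5-fold in this class were Ddx58, at 43.9 CPM in the distal and 23.0 CPM in the niche library (-0.94, -1.57 to -0.28), Oas2 (14.6 and 6.07 CPM, -1.28), Herc6 (40.2 and 26.0 CPM, -0.64) and Samd9l (34.1 and 22.6 CPM, -0.61). The intervals of Herc6 and Samd9l hold 0. Irf7 was at 239 and 175 CPM (-0.45, -0.70 to -0.19) and Ifitm3 at 1540 and 1846 CPM (0.26, 0.17 to 0.35). Ddx58 and Irf7 were thus below 0 in both macrophage classes, but in the interstitial class this did not hold under every setting: Ddx58 was at 0.19 with finer clusters (resolution 1.5) and at 0.76 when cells were thinned, and Irf7 at 0.03 as a mean over cells.

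Migratory dendritic-like cells (55 distal and 63 niche cells) had a summed member level of 5548 CPM in the distal and 4506 CPM in the niche library. Of 32 measured members, 22 were below 0, with a median log2 ratio of -0.27 beside 0.05 over all genes. Past 1.5-fold, 9 were lower (10.5% of all genes) and 2, Dhx58 and Oasl2, were higher (15.6% of all genes). The counting interval lay below 0 for 8 members (6.68% of all genes) and above 0 for 0 (8.86% of all genes). Isg20 was at 96.7 and 10.2 CPM (-3.15, -4.78 to -1.99), on 37 and 6 UMIs. Ifitm3 was at 1126 and 728 CPM (-0.63, -0.83 to -0.43). Neutrophil markers summed to 2083 CPM in the distal and 49.3 CPM in the niche class. In the distal library, neutrophil-like cells had 196 CPM of Isg20. The macrophage gene C1qa went the other way, at 5.23 CPM in the distal and 703 CPM in the niche class. The part of neutrophil and macrophage RNA in the ratios of this class was not tested.

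Classes with under 50 cells in a library are given as levels. Proliferating monocyte/macrophage-like cells had summed member levels of 4724 CPM in the distal (43 cells) and 4504 CPM in the niche library (273 cells), and the intervals (4556 to 4897, and 4452 to 4556) do not overlap before rounding but all but touch. Classical monocyte-like cells were at 13245 and 12622 CPM, neutrophil-like cells at 9205 and 9147 CPM and endothelial-like cells at 8795 and 7969 CPM. Endothelial-like cells had 333 and 1982 CPM of C1qa. T cell-like cells were at 2151 and 3875 CPM, the niche value on 37 cells. C1qa was at 5.11 and 53.0 CPM in those T cell-like cells, against 3314 and 3803 CPM in monocyte/macrophage-like cells, and the part of free RNA in the members' values was not tested. Single cells weighed on the niche value: Rsad2, at 18.7 and 238 CPM, had all its 27 niche UMIs in 1 cell, and Ifi44, at 3.98 and 177 CPM, had 20. Thinned to 2000 UMIs, T cell-like cells held a mean of 4.35 member UMIs in the distal and 4.85 in the niche library, closer than the sums.

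Within the monocyte/macrophage-like class, single cells differed widely. Each cell was thinned to 2000 UMIs so that depth was equal, which kept 294 distal and 1714 niche cells. Distal cells held a median of 12 member UMIs, with 35.7 at the 90th percentile and 219 in the highest cell. Niche cells held a median of 11, with 28 at the 90th percentile and 129 in the highest cell. The medians were thus close, and the libraries differed more in the upper tail. The Fano factor (variance over mean across cells, near 1 for pure counting) of the summed members was 24.7 in the distal and 10.5 in the niche library. The highest 10% of cells held 35.6% of the member UMIs in the distal and 29.5% in the niche library, and 40.0% and 33.6% without Ifitm3, Isg15 and Bst2.

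**Figure D4:**
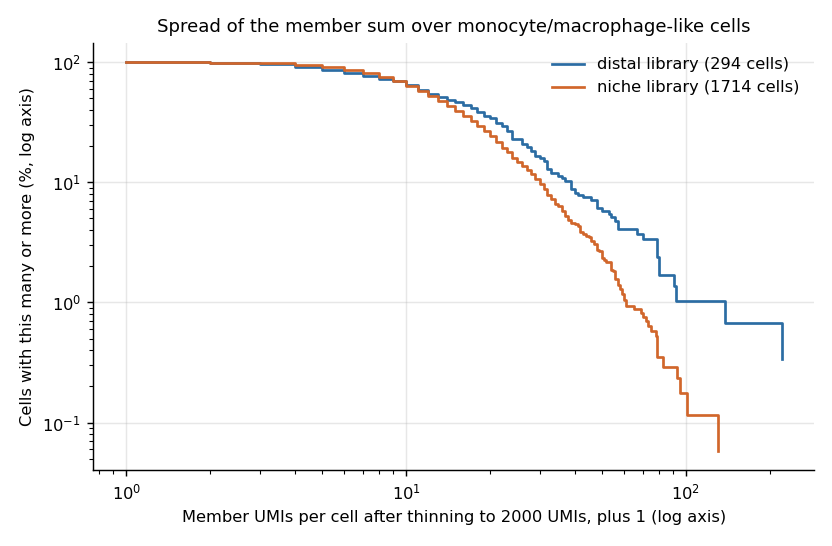
Share of monocyte/macrophage-like cells (y axis, percent, log scale) with at least the given number of member UMIs after thinning to 2000 UMIs per cell (x axis, number plus 1, log scale), for the distal (294 cells) and niche (1714 cells) library. The curves start together, with medians of 12 and 11 UMIs, and part in the upper tail, which ends at 219 and 129 UMIs.

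Many members varied more between cells than most genes did, and a few by far the most. Rsad2 had a Fano factor of 19.7 in the distal and 6.20 in the niche library, Isg15 of 7.59 and 4.49, and Ifit2 of 5.52 and 1.96. Over the members with at least 20 thinned UMIs the median Fano factor was 1.33 in the distal (35 members) and 1.23 in the niche library (38 members), beside 1.05 and 1.02 over all genes. Above the 90th percentile of all genes (1.37 and 1.14) lay 17 of 35 and 29 of 38 members. The genes were not matched to the members by mean level. That level differed widely, at 5.47 thinned UMIs per distal cell for Ifitm3 and 0.08 for Oas1a. The part of abundance in these counts was not tested. Without thinning, 5 of 298 distal cells held 285 of the 507 Rsad2 UMIs of the class (56.2%), the highest cell 136 of them, whereas the 5 highest of 1726 niche cells held 368 of 2445 (15.1%). Cmpk2 was alike, with 54% and 16.1% in the 5 highest cells, while for Ifitm3 these shares were 8.41% and 1.5%. Between them in the distal library lay Isg20 at 30.8%, Usp18 at 29.7% and the IFIT genes given above. A group of 5 is a larger share of 298 than of 1726 cells, so these values are not compared between libraries. The distal Rsad2 level therefore rests on few cells. With the 6 distal and 35 niche cells of the highest member share left out, its log2 ratio was -0.52 instead of -0.92. Then 9 members were lower past 1.5-fold, without a share of all genes to set beside them.

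**Figure D5:**
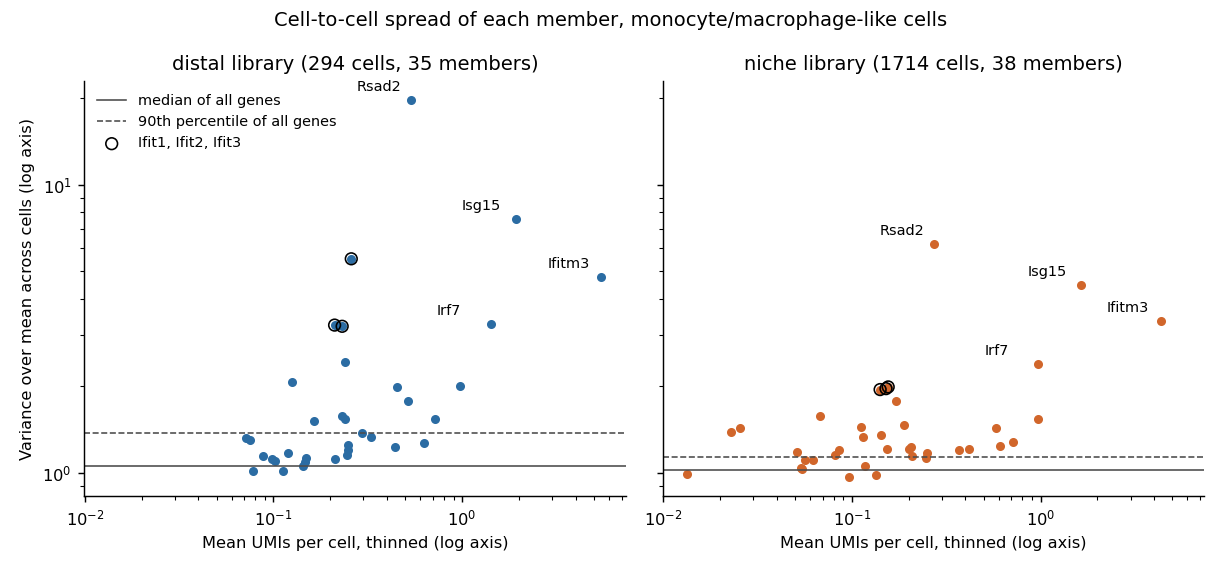
Variance over mean across monocyte/macrophage-like cells (y axis, log scale) against the mean UMIs per cell (x axis, log scale) of each member with at least 20 UMIs after thinning to 2000 UMIs, in the distal (left, 35 members) and niche (right, 38 members) library. Solid and dashed lines are the median and the 90th percentile of all genes; Rsad2 is highest in both, at 19.7 and 6.20.

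The cells of high member level were not spread evenly over the clusters. Ranked by the thinned sum without Ifitm3, Isg15 and Bst2, the highest 10% of cells were in the largest cluster for 82.8% of distal and 84.2% of niche ones, while that cluster held 58.8% and 69.8% of all thinned cells. These cells had fewer UMIs than the class, with medians of 5944 against 7437 in the distal and 9228 against 11760.5 in the niche library. Their mitochondrial share was a little lower, at 2.33% against 2.86% and 2.46% against 2.84%. The boundary is a range and not a type, since 7 distal and 66 niche cells lay within 1 UMI of it.

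Members covaried from cell to cell to differing degrees. After thinning to 5000 UMIs (249 distal and 1614 niche cells), the Pearson correlation of Isg15 with the sum of the other members was 0.90 in the distal and 0.76 in the niche library. It was 0.84 and 0.59 for Ifit1, 0.82 and 0.61 for Irf7 and 0.73 and 0.52 for Rsad2. Among members with few UMIs the values ranged widely: they were 0.79 and 0.53 for Isg20 and 0.68 and 0.44 for Cmpk2, but 0.19 and 0.22 for Eif2ak2, 0.31 and 0.21 for Ddx58 and 0.23 and 0.30 for Samd9l. These are descriptions over cells that share a library and a depth.

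The spread differed between classes too. In distal cells thinned to the same depth, the highest 10% of cells held 19.1% of the member UMIs among non-classical monocyte-like cells, 21.0% among endothelial-like cells and 25.1% among classical monocyte-like cells. They held 42% among alveolar macrophage-like cells, 47.8% among T cell-like cells and 50.3% among migratory dendritic-like cells. Monocyte-like and endothelial-like cells, where Ifitm3 was highest, thus had lower shares. Counting alone raises this share where cells hold few member UMIs, and the distal levels of the classes differed widely. They were 2151 CPM in T cell-like, 2458 CPM in alveolar macrophage-like, 5548 CPM in migratory dendritic-like and 13245 CPM in classical monocyte-like cells. The part of the level in these shares was not tested. Without Ifitm3, Isg15 and Bst2 the share was 27.5% in non-classical monocyte-like, 26.1% in endothelial-like and 36.3% in classical monocyte-like cells. The shallow endothelial-like class kept 44 of its 82 cells after thinning. Interstitial macrophage-like cells stood between, at 33.0% in the distal and 33.3% in the niche library.

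Mx1 had 367 UMIs in the distal library and was not compared. Its level was highest in migratory dendritic-like cells, at 123 CPM on 47 UMIs, followed by classical monocyte-like cells (54.5 CPM), plasmacytoid dendritic-like cells (38.8 CPM) and monocyte/macrophage-like cells (36.4 CPM). In neutrophil-like cells, where 14 other members peaked, it was at 2.36 CPM on 1 UMI.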

How the data were processed

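Counts of UMIs per gene and barcode were used as deposited by the authors, and per the file headers Cell Ranger wrote them, in version 3.0.2 for the distal and cellranger-6.0.0 for the niche matrix. Tools named in the submitters' processing notes, without their role, were Bowtie2, RSEM, Seurat 4.1.1 and Cell Ranger 3.02. The deposited gene lists held 30149 distal and 32285 niche genes, of which 29413 identifiers were shared, 27462 with the same symbol. Software version, annotation and group are confounded, since each group is 1 library.

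The members and the other gene lists were chosen with earlier results of these data known. Groups came from the sample titles. Barcodes under 200 genes or over 10% mitochondrial UMIs were dropped (405 distal and 161 niche). Scrublet in scanpy 1.11.5 called 5 distal doublets and 0 niche ones (0.0755% of cells), too few for the caller to have worked. Clusters that carried a second lineage's markers, or more markers of another type than of their own among their 10 top genes, were called mixed instead. Cells of both libraries were clustered together on 2000 variable genes without the members and the other interferon genes (30 components, 20 neighbours, Leiden resolution 1, leidenalg 0.10.2, scikit-learn 1.9.0). A marker counted when it reached 0.15 of its highest cluster and was seen in 0.1 of the cells, and a cluster was named when 0.75 of that type's markers counted, with a minimum of 3. A cluster with 0.9 of the interstitial macrophage markers took that name, and one with 0.5 was called monocyte/macrophage-like. Cluster results were in view when these thresholds were chosen, and they were amended once, so that a second lymphoid lineage makes a cluster mixed.

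UMIs were summed per class and library and given as CPM, with exact Poisson intervals. Log2 ratios of niche over distal had 0.5 UMI added and exact conditional binomial intervals at 95%. A call is at least 1.5-fold among genes with at least 20 UMIs in the class. No p-value was computed. Every member is accounted for by the rule for named genes. Both libraries' values are printed for members with at least 100 UMIs in the monocyte/macrophage-like class, and pathway genes are named when they pass 1.5-fold with as many UMIs or are a receptor, kinase, STAT or IRF; the values of 1 of these are not reported here. Members named for other classes, for spread or for their promoter were chosen after their values were seen. The ratio step was tested on simulated counts. Near-identical copies were sought with blastn 2.17.0 (at least 95% identity over 90 bases of the last 600). Genes sharing exonic bases with a gene of one list alone were found in GENCODE M21 on GRCm38, which also gave gene coordinates. Whether the authors' counting used strand is not given in the sources used here. Python 3.11.15, numpy 2.4.6, pandas 2.3.3, scipy 1.17.1 and matplotlib 3.10.9 were used. Alternatives covered clustering, resolution, the mitochondrial cap, doublet scores, thinning, centring, the UMI minimum, weighting of cells and overlapping genes.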

Additional observations from a re-analysis of the deposited data

Results flagged for a closer look

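For 7 members the log2 ratio of niche over distal was below 0 in monocyte/macrophage-like cells and above 0 in interstitial macrophage-like cells, with counting intervals on opposite sides of 0. In the interstitial class the ratio was 0.87 for Ifit1, 0.56 for Ifit2, 1.08 for Oasl1, 0.78 for Isg15, 2.31 for Rsad2, 0.26 for Ifitm3 and 1.28 for Slfn1. In the monocyte/macrophage-like class it was -0.62, -0.61, -0.32, -0.25, -0.92, -0.31 and -0.23 in the same order. The difference between the classes was not tested, since each library is 1 sample. The share of all genes with such opposite intervals is not given, so the count of 7 has no background beside it. With the interferon genes kept in the clustering, Ifit1 (-0.56), Ifit2 (-0.06) and Rsad2 (-0.45) lay below 0 in the interstitial class too. Mx1 was left out of the comparisons because the niche gene list lacks it, and it had 367 UMIs in the distal library.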

How the results depend on the processing

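No paired analysis was possible because each group is 1 library. Thinning to 2000 UMIs, planned as an alternative for the spread, is what the spread values already use; without it they were 35.4% and 29.1%. This, leaving out the highest 2% of cells, taking the largest cluster alone, leaving out the cluster of highest member level, and repeating all for interstitial macrophage-like cells were chosen after seeing the data.

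In monocyte/macrophage-like cells the median log2 ratio stayed below 0 under all alternatives, and no member was higher past 1.5-fold. The smaller clusters of the class were not among these alternatives, and in the smallest 6 members were higher past 1.5-fold. The 13 members lower past 1.5-fold became 8 with the interferon genes kept in the clustering, with or without its cluster of highest member level, and 6 at resolution 1.5. Shares of all genes past 1.5-fold are given for the main setting only, so counts under the alternatives have no background beside them. Without that cluster Ifi204 (0.11), Oasl1 (0.21), Isg15 (0.12) and Rsad2 (0.07) turned positive, and Ifi47 was -0.18 in the largest cluster alone. Of the other single-member values, 438 stayed within the counting interval of the reported ratio and 51 lay outside it; in interstitial macrophage-like cells these numbers were 344 and 38.

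In interstitial macrophage-like cells the median of 0.08 became -0.04 with the interferon genes kept, -0.01 with a mitochondrial cap of 5% and -0.08 when centred on all genes, whose median shift was 0.16. The 4 lower members became 2 at resolution 1.5, 1 when thinned, and 0 with at least 100 UMIs or as a mean over cells. The 5 higher became 9 when thinned and 15 as a mean over cells, again without shares of all genes for these settings. With the interferon genes kept, Ifit1 was -0.56, Ifit2 -0.06, Rsad2 -0.45 and Ifi47 -0.21. At resolution 1.5 Ddx58 was 0.19 and Ifi47 -0.28, thinned Ddx58 was 0.76 and Bst2 0.08, and as a mean over cells Irf7 was 0.03. The causes were not tested.

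Summed levels (CPM) with the interferon genes kept, at resolution 1.5, with the 5% cap and thinned were 7650, 7192, 8040 and 8847 in distal and 6526, 6375, 6604 and 7126 in niche monocyte/macrophage-like cells. In interstitial macrophage-like cells they were 6047, 5709, 4747 and 3886 (distal) and 6167, 6085, 5372 and 5633 (niche), and 4733 (distal) without the highest 5% of doublet scores. The distal spread was 37.6% at resolution 1.5 and 40.0% without the 3 members with the most UMIs, and the niche spread 30.1% with the interferon genes kept and 33.6% without those 3.

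Depth limits the sparse members: Oas2 and Cmpk2 had 25 and 50 distal UMIs in the monocyte/macrophage-like class. Neither the number of animals nor their spread can be read from 1 library per group.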
